A study of Mus musculus with 26 samples.

Results

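Cirbp, Rbm3 and Rbmx, genes of the glycine-rich RNA-binding protein family that includes the cold-inducible proteins, were followed in mouse choroid plexus (ChP) of the 4th ventricle. The members were chosen by gene symbol, and these 3 of the 55416 genes in the authors' table each matched 1 Ensembl identifier (Cirbp, ENSMUSG00000045193, Rbm3, ENSMUSG00000031167, and Rbmx, ENSMUSG00000031134). All 3 passed the minimum of a mean of 1 CPM in each group and belong to the 13697 genes tested. Levels are given as CPM, the authors' estimated read counts relative to library size, scaled with edgeR's TMM factors.

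CIRBP and RBM3 bind RNA through an RNA recognition motif followed by a glycine-rich tail. Their synthesis rises when cells are mildly cooled and falls when they are warmed, and heat shock genes driven by HSF1 respond in the opposite direction. In tissues, Cirbp and Rbm3 transcripts have been described to run against the daily swing of body temperature. RBMX (hnRNP G) is a nuclear relative that acts in splicing. CIRBP has been described to stabilise or process transcripts of circadian regulators such as Clock, and RBM3 to act on translation at synapses through Rtn3.

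The question of the study was how ChP rhythms depend on the suprachiasmatic nuclei (SCN), the central circadian clock. Adult male C57Bl6J mice, aged 4 to 6 months, had either sham surgery (Ctrl, 12 mice) or a bilateral electrolytic lesion that destroys the SCN (SCNx, 12 mice). After a return to a light/dark cycle they stayed in constant darkness, and 1 mouse of each group was killed every 4 h from circadian time (CT) 0 to CT44. A library is therefore 1 mouse and is named by its group and time, as in Ctrl CT8. Another pair of male mice (KO), aged 8 months when treated, carried FoxJ1-ERT2-Cre+/- and Bmal1fl/fl and received tamoxifen in the diet, so that Bmal1 (Arntl) is deleted in cells that express Foxj1, which include the ciliated ChP epithelium. The KO mice were kept in LD12:12 and killed at zeitgeber time (ZT) 7 and ZT18, 1 mouse each, and no Cre-negative littermate was analysed here. Their ChP was cut from frozen sections by laser capture and sequenced with another kit, and the paper gives a lower RNA integrity for it. Recombination was tested in liver, and a partial Arntl transcript persists. No body or brain temperature was among the measurements used here.

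The Ctrl libraries held 38751162 to 47335226 counts, the SCNx libraries 41807000 to 49527614, and the KO libraries 17425176 and 18059213. Markers of choroid plexus epithelium such as Ttr were high in all libraries of Ctrl and SCNx, and their sum over 10 genes lay between 104469 and 165210 CPM. Several libraries stood apart. The 8 hepatocyte markers summed to 1873 CPM in Ctrl CT16 and 10695 CPM in SCNx CT0, against at most 30.3 CPM in any other. The 10 neuronal markers reached 321 CPM in Ctrl CT4 and 329 CPM in SCNx CT32, against medians of 17.6 and 16.0 CPM. The 5 red blood cell markers reached 6642 CPM in SCNx CT44, and the next SCNx library had 1456 CPM.

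RefSeq's promoter table (GRCm38.p6) had entries for 2 of the 3 members, Cirbp and Rbmx. The 250 bases before their transcription starts are shown because the members are read here as temperature-linked genes, together with the promoter of Hspb1, a small heat shock protein gene. Capitals mark matches on either strand to the mild cold element TCCCCGCC or to a heat shock element, searched as GAANNTTC or TTCNNGAA. The E-box CACGTG, which the clock proteins bind, was searched too. The Cirbp promoter at chr10:80167589-80167838 (+) had 1 mild cold element, 247 bases before the start. The Rbmx promoter at chrX:57393037-57393286 (-) had no match to any of the motifs. The Hspb1 promoter at chr5:135887669-135887918 (+) had 2 heat shock elements, 117 and 97 bases before the start.
Cirbp: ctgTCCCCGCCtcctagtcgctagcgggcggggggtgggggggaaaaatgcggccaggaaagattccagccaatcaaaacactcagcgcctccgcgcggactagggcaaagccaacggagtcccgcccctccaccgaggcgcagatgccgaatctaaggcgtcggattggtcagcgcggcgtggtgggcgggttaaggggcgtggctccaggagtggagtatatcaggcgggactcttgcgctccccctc
Rbmx: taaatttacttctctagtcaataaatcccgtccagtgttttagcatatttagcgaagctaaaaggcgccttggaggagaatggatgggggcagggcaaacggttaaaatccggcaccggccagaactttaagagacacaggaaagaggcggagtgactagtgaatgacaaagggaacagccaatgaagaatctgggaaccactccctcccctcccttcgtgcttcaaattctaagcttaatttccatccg
Hspb1: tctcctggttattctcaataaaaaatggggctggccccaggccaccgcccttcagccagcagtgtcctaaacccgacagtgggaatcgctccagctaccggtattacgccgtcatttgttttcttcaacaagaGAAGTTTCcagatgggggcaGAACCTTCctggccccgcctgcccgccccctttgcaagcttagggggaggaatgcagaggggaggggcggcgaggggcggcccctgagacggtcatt
Of all 32851 promoters in the table, 4.642% held the mild cold element, 12.84% a heat shock element and 6.021% the E-box. A further start listed for Cirbp, at chr10:80167921-80168170 (+), had no match. Among the 18 heat shock genes of the list used below that matched an entry, 9 had a heat shock element and 5 had the mild cold element in at least 1 promoter. A match is a stretch of letters and was not tested as a binding site.

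In Ctrl mice the Cirbp transcript rose in the subjective day and fell in the subjective night in both cycles. Its level was 10.9 CPM in the lowest library (Ctrl CT44), 27.1 CPM at the median and 40.0 CPM in the highest (Ctrl CT32), with a mean of 26.7 ± 10.6 CPM (SD, n = 12). The libraries from CT4 to CT12 had 36.3, 37.0 and 37.1 CPM, and those a cycle later, from CT28 to CT36, had 31.5, 40.0 and 35.9 CPM. By contrast 14.5 CPM was measured at CT16, 14.9 CPM at CT20 and 10.9 CPM at CT44. Ctrl CT40 had 22.8 CPM, above its counterpart at CT16. All 6 mice of the subjective day hours CT4 to CT12 and CT28 to CT36 were above all 6 mice of the other hours, which is a description of the hours and no test. The fitted 24 h curve had a log2 amplitude of 0.82 ± 0.13 (SE), a peak-to-trough ratio of 3.104, and its peak at 8.02 ± 0.61 h. This rhythm passed the quasi-likelihood test of edgeR, with p-values adjusted by Benjamini-Hochberg over all 13697 genes (adjusted p = 0.00120). Fitted to the 6 mice of a single cycle, it did not pass (adjusted p = 0.0921 in the first and 0.264 in the second), with amplitudes of 0.83 and 0.80 and peaks at 7.63 and 8.37 h. Such fits called 44 and 14 genes in all.

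Rbm3 followed with a later peak. Its level in Ctrl was 41.3 CPM in the lowest library (CT44), 70.0 CPM at the median and 100.002 CPM in the highest (CT12), with a mean of 71.5 ± 21.8 CPM (SD, n = 12). Values climbed from 48.6 CPM at CT0 through 65.2 CPM at CT4 and 84.98 CPM at CT8 to CT12, and were 74.7 CPM at CT16 and 46.9 CPM at CT20. In the second cycle 93.5, 96.5 and 93.6 CPM were reached at CT32, CT36 and CT40, after 49.5 CPM at CT24 and 63.7 CPM at CT28. The fitted curve had an amplitude of 0.59 ± 0.11 (SE), a peak-to-trough ratio of 2.27 and a peak at 10.9 ± 0.69 h (adjusted p = 0.00200, edgeR). The Rbm3 peak was 2.83 h after that of Cirbp. Fitted to each cycle alone, the interval was 3.04 h in the first and 2.64 h in the second, and the difference of the peaks was not tested. The interval depends on the shape of the curve assumed. A rank test, used as an alternative, put the Ctrl peaks at 8 h for Cirbp and 14 h for Rbm3. Its adjusted p were 0.0385 and 0.0126. Neither cycle alone gave a call for Rbm3 (adjusted p = 0.170 and 0.151, edgeR), with amplitudes of 0.55 and 0.63.

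Rbmx did not pass the test. Its level in Ctrl ranged from 20.0 CPM (CT44) through a median of 26.3 CPM to 36.4 CPM (CT12), with a mean of 26.3 ± 4.29 CPM (SD, n = 12). The fitted amplitude was 0.12 ± 0.097 (SE, adjusted p = 0.659). Of the 13697 genes tested, 10.7% passed the test of a rhythm in Ctrl, so that 2 of 3 members stand beside a background of about 1 gene in 10. Ordered by p-value, Cirbp ranked 250 and Rbm3 304 of 13697, and Rbmx 9004. The 5 fibroblast markers moved with both genes in Ctrl. Their sum ranged from 407 to 569 CPM, with an r of 0.64 with Cirbp and 0.68 with Rbm3 over 12 mice. In SCNx these r were -0.084 and -0.043. Of the 5 markers 3 were called rhythmic in Ctrl, with peaks between 5.02 and 12.2 h. The part of these cells in the Cirbp and Rbm3 rhythms was not tested.

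The cycles give a check that needs no curve, since the mice of the first and second cycle are different animals. Across the 6 hours sampled, levels of the first and second cycle in Ctrl had a Pearson r of 0.90 for Cirbp and 0.93 for Rbm3, and 0.47 for Rbmx. In SCNx the same r was 0.13 for Cirbp, -0.58 for Rbm3 and 0.18 for Rbmx. These are descriptions over 6 points that share the 24 h pattern of a group. In Ctrl the ratio of the cycles at the same hour was largest at 16 h for both Cirbp (0.66 on the log2 scale) and Rbm3 (0.33).

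**Figure D1:**
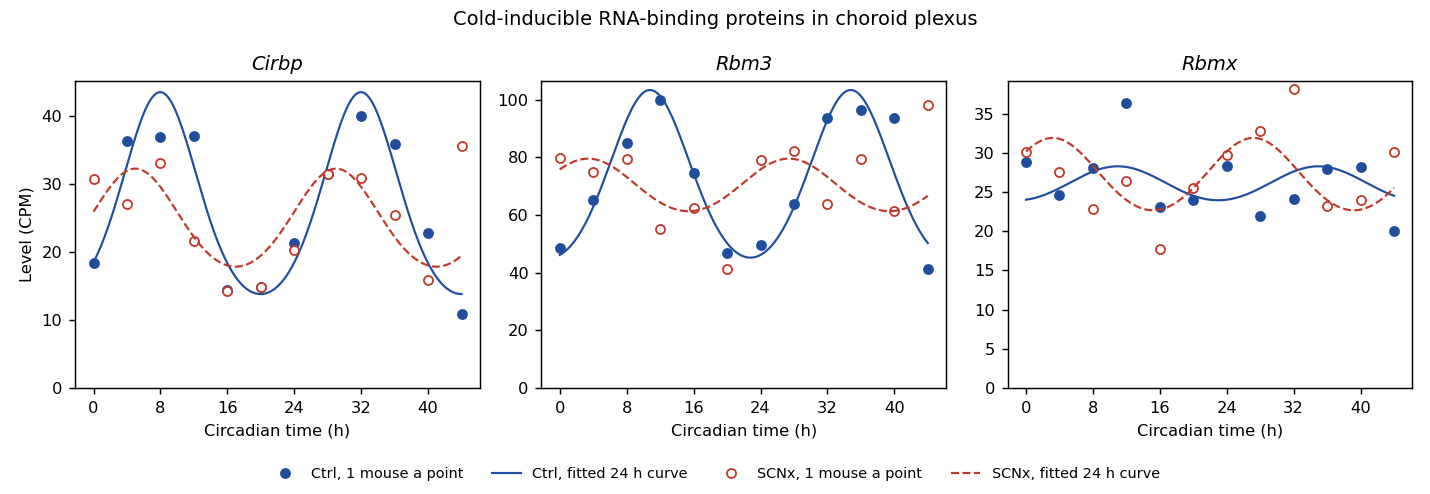
Level of Cirbp, Rbm3 and Rbmx in CPM (y axes from 0) against circadian time in hours. Each point is 1 mouse, filled for Ctrl and open for SCNx, and lines are 24 h curves fitted by least squares to log2 CPM. The Ctrl points of Cirbp and Rbm3 follow their curve in both cycles, from 10.9 to 40.0 CPM and from 41.3 to 100.002 CPM, and SCNx CT44 lies far above the SCNx curve for both genes.

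After SCN lesion the Cirbp level kept a similar mean with a smaller range. It was 14.3 CPM in the lowest library (SCNx CT16), 26.3 CPM at the median and 35.6 CPM in the highest (SCNx CT44), with a mean of 25.1 ± 7.54 CPM (SD, n = 12). Apart from SCNx CT44, the low values were again at CT16 (14.3 CPM), CT20 (14.9 CPM) and CT40 (15.9 CPM). High values were found at CT0 (30.8 CPM), CT8 (33.1 CPM), CT28 (31.5 CPM) and CT32 (31.0 CPM). The fitted amplitude was 0.39 ± 0.13 (SE) with a peak at 4.58 ± 1.19 h, and it did not pass the test (unadjusted p = 0.0277, adjusted p = 0.272, edgeR).

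SCNx CT44 went against the other night libraries for both cold-inducible genes. Its Cirbp level of 35.6 CPM compares with 14.9 CPM at SCNx CT20, the same hour a cycle earlier. Its Rbm3 level of 98.2 CPM compares with 41.2 CPM at SCNx CT20, and these were the highest and lowest Rbm3 values of the group. This is also the library with the most red blood cell transcripts, whose part in these levels was not tested. Across SCNx mice the r of the red blood cell sum was 0.44 with Cirbp and 0.74 with Rbm3, against 0.25 and 0.17 in Ctrl. Without SCNx CT44, the Cirbp amplitude in SCNx was 0.58 with a peak at 5.82 h (adjusted p = 0.126), and the Rbm3 amplitude was 0.25 (adjusted p = 0.287).

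Rbm3 in SCNx had a median of 77.1 CPM between 41.2 CPM (CT20) and 98.2 CPM (CT44), with a mean of 71.4 ± 15.1 CPM (SD, n = 12). Its fitted amplitude was 0.17 ± 0.11 (SE, adjusted p = 0.560), with a peak at 2.68 ± 2.19 h. Rbmx ranged from 17.8 CPM (CT16) through a median of 27.0 CPM to 38.1 CPM (CT32) in SCNx, with a mean of 27.3 ± 5.32 CPM (SD, n = 12) and an amplitude of 0.25 ± 0.097 (SE, adjusted p = 0.350). No member was called rhythmic in SCNx, where 0% of the genes tested passed edgeR's test (0 of 13697). Before adjustment 2032 genes had a p below 0.05 in SCNx, and DESeq2's likelihood ratio test called 432, none of them a member.

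Whether the rhythm differed between the groups was tested directly, with the cosine and sine terms of SCNx against those of Ctrl. These terms hold the amplitude and the peak time together. Rbm3 passed this test (adjusted p = 0.0268), with an amplitude of 0.59 in Ctrl and 0.17 in SCNx, and fitted peaks at 10.9 and 2.68 h. Cirbp did not (unadjusted p = 0.00607, adjusted p = 0.130), although its amplitude was 0.82 in Ctrl and 0.39 in SCNx. Rbmx had an adjusted p of 0.383. The background for this test was 2.12% of the genes. The Rbm3 call was lost, with adjusted p between 0.0503 and 0.0627, when Ctrl CT12, SCNx CT0 or SCNx CT12 was left out, and it was 0.0636 without Ctrl CT16 and SCNx CT0, the libraries with most hepatocyte transcripts. DESeq2 called the difference for Cirbp too (adjusted p = 0.0367).

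A single 24 h curve was then fitted to all 24 libraries, with a mean per group. This test can pass when 1 group carries the rhythm, as for Nr1d1, with amplitudes of 2.45 in Ctrl and 0.29 in SCNx (adjusted p = 0.0276), so it does not show that both groups share one. Cirbp passed, with a common amplitude of 0.53 ± 0.11 (SE), a peak at 6.97 ± 0.73 h and an adjusted p of 0.0237 (edgeR). Rbm3 had a common amplitude of 0.25 ± 0.11 (SE, adjusted p = 0.232) and Rbmx one of 0.11 ± 0.074 (SE, adjusted p = 0.550). The background here was 4.65% of the genes. The Cirbp call did not hold without Ctrl CT20 (adjusted p = 0.0563) or without Ctrl CT44 (adjusted p = 0.0614), and without SCNx CT44 it was at 0.000498.

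The mean levels of the members differed little between the groups. The SCNx minus Ctrl log2 difference was -0.088 ± 0.21 (SE) for Cirbp, -0.0024 ± 0.15 for Rbm3 and 0.056 ± 0.10 for Rbmx, with adjusted p of 0.934, 0.998 and 0.900 (edgeR). No member passed, and the background was 0% (0 of 13697 genes by edgeR, 1283 at an unadjusted p under 0.05, and 7 by DESeq2's Wald test). In such bulk samples, fewer cells of a type and less RNA per cell cannot be told apart.

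At single times the differences were larger and of both signs, 1 mouse against 1 mouse. At CT12 SCNx was below Ctrl by 0.77 on the log2 scale for Cirbp (21.7 against 37.1 CPM) and by 0.86 for Rbm3 (55.1 against 100.002 CPM). At CT0 SCNx was above Ctrl by 0.74 for Cirbp and 0.72 for Rbm3, and at CT44 by 1.71 and 1.25. At CT16, CT20, CT24 and CT28 the Cirbp difference stayed between -0.070 and 0.0050. Rbmx had its largest differences at CT32 (0.66), CT44 (0.58) and CT28 (0.58).

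**Figure D2:**
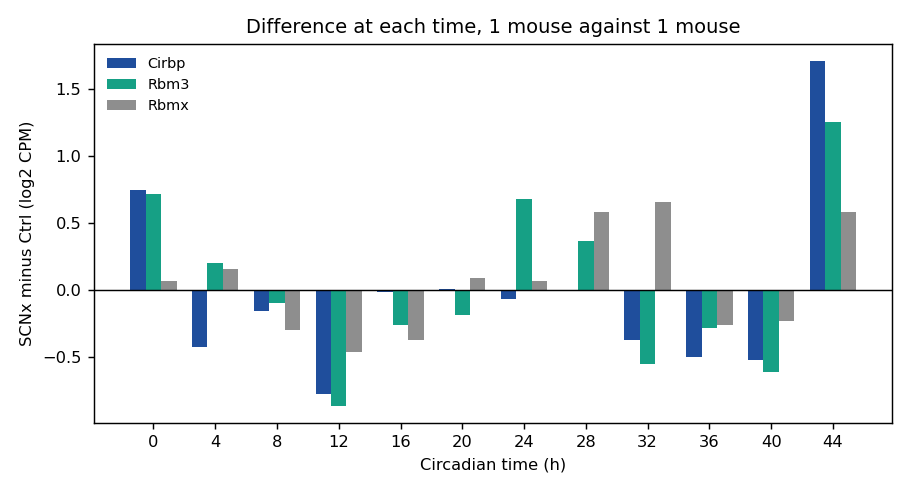
SCNx minus Ctrl difference in log2 CPM (y axis) at each circadian time in hours (x axis) for Cirbp, Rbm3 and Rbmx, each bar 1 SCNx mouse against 1 Ctrl mouse, with no replicate at a time. Cirbp and Rbm3 bars point down at CT12 and up at CT0 and CT44, where they reach 1.71 and 1.25.

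Cirbp and Rbm3 also moved together from mouse to mouse. Over 12 mice their log2 CPM had a Pearson r of 0.73 in Ctrl and 0.74 in SCNx. After the fitted 24 h curves were subtracted, the r of the residuals was 0.65 and 0.71. Few mice carried much of this. In Ctrl, CT40 had log2 residuals of 0.31 for Cirbp and 0.33 for Rbm3, and CT44 had -0.34 and -0.28. In SCNx, CT20 had -0.38 and -0.69, and CT44 had 0.87 and 0.56. Whether the residuals move together without these mice was not tested. Cirbp and Rbmx had an r of 0.46 in Ctrl and 0.60 in SCNx, and Rbm3 and Rbmx 0.49 and 0.24. These values are descriptions, and the points share their libraries and, before subtraction, their times.

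Heat shock genes, whose products fold proteins and of which those driven by HSF1 rise with temperature, served as the opposite reference. The paper reads the same peak in another way. It counts Hspa8 and Hsp90aa1 among genes of the endoplasmic reticulum stress response. With them it counts chaperones of the endoplasmic reticulum such as Hspa5 and Calr, which are not among the heat shock genes used here. The paper also found targets of heat shock factor enriched among genes that peak late in the subjective night. It proposes that the stress response, highest late in the subjective night, may prepare ChP for a load of secreted proteins. Whether temperature moved any of these genes was not tested. The list held 22 genes of cytosolic and mitochondrial chaperones and their partners, all tested. In Ctrl 15 of the 22 passed the test of a rhythm (against 10.7% of all genes), with peaks between 17.4 and 21.4 h and a circular mean of 19.5 h. Hsph1 had an amplitude of 0.54 ± 0.085 (SE) and a peak at 19.9 h, Hspb1 0.52 ± 0.073 and 19.0 h, and Hsp90aa1 0.42 ± 0.055 and 20.5 h. Hspa8, the constitutive HSP70, had 0.30 ± 0.045 and a peak at 17.8 h. The inducible HSP70 genes Hspa1a and Hspa1b, at means of 7.98 and 4.86 CPM, did not pass (adjusted p = 0.435 and 0.156, edgeR). All 15 called genes peaked within 4 h of the time opposite to the Cirbp peak, as did 621 of all 1459 called genes (42.6%).

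In SCNx 0 of the 22 heat shock genes passed the test of a rhythm by edgeR, as for all genes, and 15 passed the test of a single curve over all 24 mice (against 4.65% of all genes). The difference of the rhythm was called for 2 (against 2.12% of all genes), Hsp90aa1 (adjusted p = 0.0404) and its co-chaperone Fkbp4 (adjusted p = 0.0372). The fitted amplitude was larger in Ctrl than in SCNx for 18 of 22, with medians of 0.28 and 0.17. Over all genes tested the medians were 0.11 and 0.091. Cirbp had a larger amplitude than each of the 15 called heat shock genes in Ctrl, and Rbm3 likewise. Hspa1b, which was not called in either group, had an amplitude of 0.76 ± 0.25 (SE) in Ctrl, above that of Rbm3. In SCNx its amplitude was 0.83 ± 0.25 (SE), above those of Cirbp and Rbm3. It was among the 15 genes that passed the single-curve test (adjusted p = 0.0295, edgeR).

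**Figure D3:**
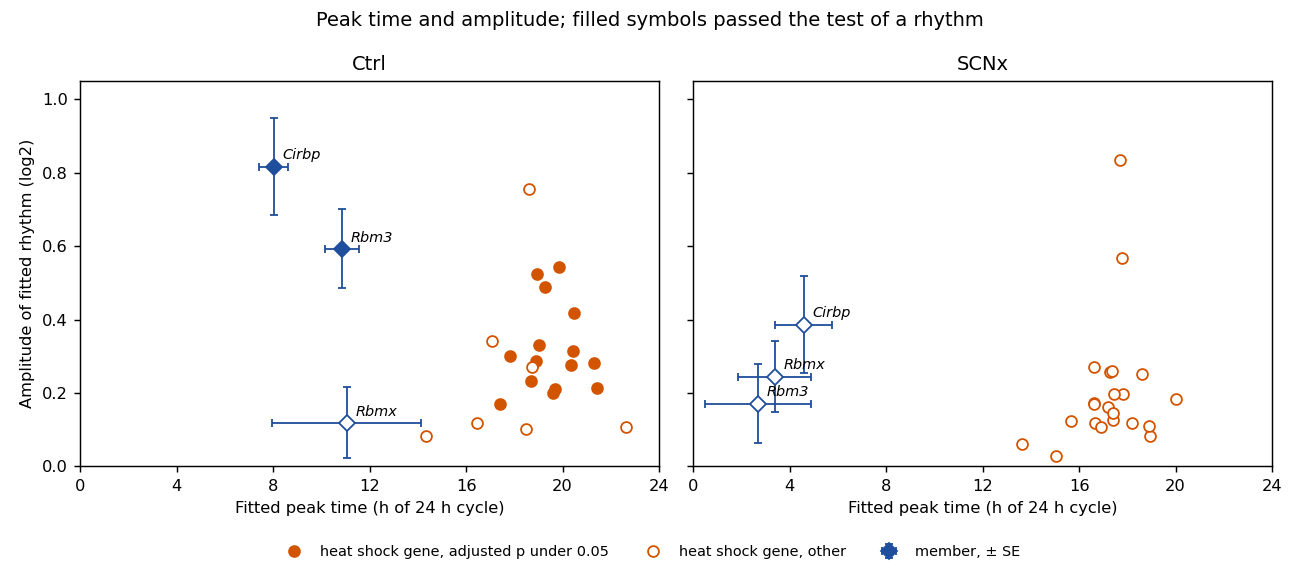
Fitted peak time in hours (x axis) and log2 amplitude (y axis) of the 3 members (diamonds with ± SE) and of 22 heat shock genes (circles) in Ctrl and SCNx, with filled symbols for genes that passed the test of a rhythm in that group. In Ctrl Cirbp and Rbm3 sit at 8.02 and 10.9 h and the 15 called heat shock genes between 17.4 and 21.4 h, and in SCNx no symbol is filled.

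The mean log2 CPM over the 22 heat shock genes summed up this reference in each mouse. In Ctrl it was 6.45 in the lowest library (CT8), 6.72 at the median and 7.08 in the highest (CT44). The lowest heat shock libraries CT8 (6.45), CT32 (6.50) and CT4 (6.52) were among those with most Cirbp, and the highest ones CT44 (7.08), CT16 (7.02) and CT20 (6.97) were those with least. A 24 h curve took up 93.0% of the variance of this mean in Ctrl, with a peak at 19.2 ± 0.35 h (SE). By the same least squares fit, Cirbp peaked 11.2 h away from the heat shock mean, close to the opposite phase, and Rbm3 8.42 h away. Rbmx, which had no called rhythm, was at 8.25 h.

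In SCNx the heat shock mean ran from 6.55 (CT8) through 6.76 to 7.24 (CT40), and a 24 h curve took up 53.6% of its variance, with a peak at 17.5 ± 1.19 h (SE). The fitted Cirbp curve was 11.5 h away from it and that of Rbm3 9.90 h, from rhythms that were not called. SCNx CT40 had the highest heat shock mean of all 24 mice and a Cirbp level of 15.9 CPM. SCNx CT44 did not follow this relation, as its heat shock mean of 6.82 was above the group median of 6.76 and its Cirbp level was the highest.

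Mouse by mouse, Cirbp and the heat shock mean were correlated within Ctrl, with a Pearson r of -0.95 (permutation p = 1e-05, the smallest that 100000 permutations can give, adjusted p = 6e-05 over 6 relations) and a Spearman rho of -0.91 (permutation p = 0.00013, adjusted 0.00078). The permutation exchanged mice across circadian times, and both measures follow a 24 h curve of nearly opposite phase, so this p largely restates their rhythms. Without the 2 mice farthest from the median heat shock mean, Ctrl CT16 and Ctrl CT44, r was -0.91. After the 24 h curves were subtracted, the r of the residuals in Ctrl was -0.66, given as a description. Over the 6 core heat shock genes r was -0.88.

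In SCNx the r of Cirbp with the heat shock mean was -0.58 (permutation p = 0.0385, adjusted 0.116) and rho was -0.56 (permutation p = 0.0625, adjusted 0.140). It fell to -0.40 without SCNx CT8 and SCNx CT40, and the residual r was -0.18. Left out singly, SCNx CT20 or SCNx CT44 gave an r of -0.70 and -0.67 with adjusted permutation p of 0.0375 and 0.0363, so that a call depended on whether these mice were kept. Whether the correlation differed between Ctrl and SCNx was not tested.

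For Rbm3 the r was -0.56 in Ctrl (permutation p = 0.060, adjusted 0.120) with a rho of -0.55 (permutation p = 0.070, adjusted 0.140). In SCNx it was -0.12 (permutation p = 0.683, adjusted 0.683) with a rho of -0.18 (permutation p = 0.575, adjusted 0.575). Without the farthest mice these r were -0.52 and 0.15. For Rbmx the r was -0.31 in Ctrl (permutation p = 0.336, adjusted 0.403) and -0.36 in SCNx (permutation p = 0.244, adjusted 0.366). Its rho was -0.24 in both groups (permutation p = 0.442 and 0.441, adjusted 0.530), and r without the farthest mice was 0.11 and -0.64. Of the 6 relations, the one of Cirbp in Ctrl passed the correction, and all 6 had the same negative sign.

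**Figure D4:**
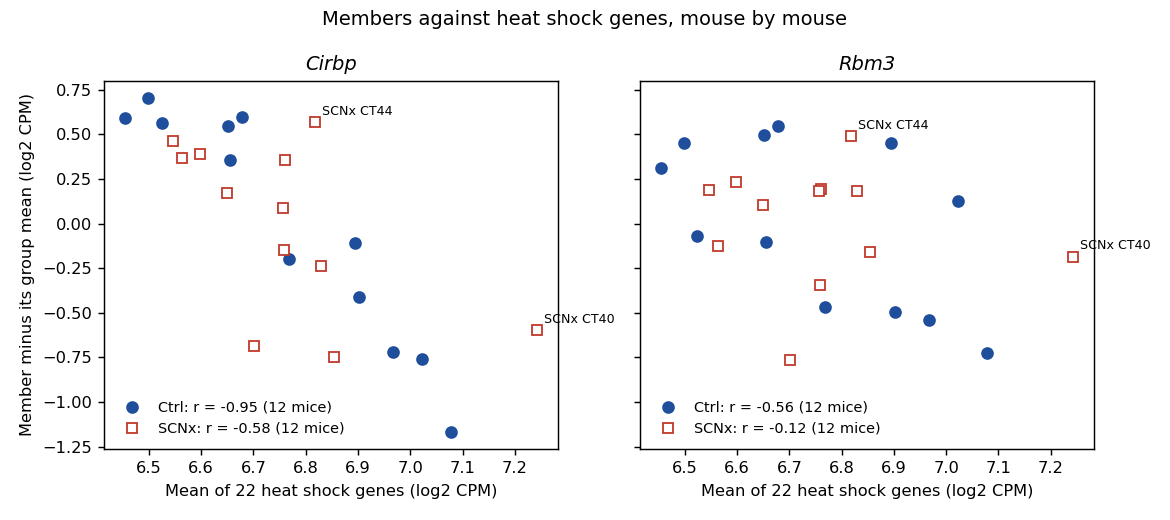
Cirbp (left) and Rbm3 (right) as log2 CPM minus the mean of the group (y axis) against the mean log2 CPM of 22 heat shock genes (x axis), each point 1 mouse, filled circles for Ctrl and open squares for SCNx. Cirbp falls along the heat shock mean in Ctrl (r = -0.95) and more loosely in SCNx (r = -0.58), where SCNx CT44 lies above the others.

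Among the factors that act on heat shock genes, Hsf1, the main heat shock transcription factor, was rhythmic in Ctrl with an amplitude of 0.20 ± 0.041 (SE), a peak at 19.7 h and an adjusted p of 0.00972 (edgeR). Hsf2, Hsf4 and Hsbp1 did not pass (adjusted p = 0.811, 0.780 and 0.538), and Hsf5 was below the minimum level. Of the reported targets of the members, Clock had an amplitude of 0.41 ± 0.071 and a peak at 23.9 h in Ctrl (adjusted p = 0.00166). Rtn3, a membrane-shaping reticulon gene, did not pass (adjusted p = 0.934). All 12 clock genes on the list were called in Ctrl (against 10.7% of all genes) and 10 of them in the test of the difference (against 2.12%), with Nr1d1 at 7.55 h having the peak nearest to that of Cirbp.

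Cirbp differed in its order of day and night between the KO pair, 1 mouse a time, and the Ctrl curve. In the KO mice Cirbp was at 10.5 CPM at ZT7 (95% counting interval 9.04 to 12.2) and 13.9 CPM at ZT18 (12.3 to 15.7), from 175 and 264 counts after rounding. The ZT7 minus ZT18 difference was -0.40 on the log2 scale (95% counting interval -0.69 to -0.12), while the curve fitted to Ctrl gave 1.49 between 7 and 18 h and that of SCNx 0.67. Intervals of this kind cover counting error only, and with 1 mouse a time there is no test. Over the 15018 genes with at least 1 CPM in the KO pair, 28.6% differed by as much as Cirbp or more, so that a difference of this size was common between these 2 mice.

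Rbm3 in the KO mice was at 94.1 CPM at ZT7 (89.5 to 98.9) and 70.4 CPM at ZT18 (66.7 to 74.3), a log2 difference of 0.42 (0.31 to 0.53) against 0.49 by the Ctrl curve. Scaled by library total, the Rbm3 difference was 0.28, below this interval. Rbmx was at 40.0 and 50.1 CPM, a difference of -0.32 (-0.47 to -0.18) against 0.088 by the Ctrl curve. Over the 15018 genes of the KO pair, 27.1% differed by as much as Rbm3 or more and 37.8% by as much as Rbmx or more. Arntl itself had 11.1 CPM at ZT7 and 8.92 CPM at ZT18, a difference of 0.31 (0.0046 to 0.62), where the Ctrl curve gave -1.84. The counts of the deposited gene model include the part of Arntl that remains after deletion, so this level does not check the deletion. Of the 22 heat shock genes 18 were higher at ZT7 in the KO pair (against 50.9% of all 15018 genes), but 13 when scaled by library total (against 36.1%). The scaling moved the median of all genes from 0.0087 to -0.13 on the log2 scale, and the members kept their signs under both. The Ctrl curves put all 22 lower at 7 h than at 18 h. The KO values were scaled apart from those of Ctrl and SCNx. Dissection, RNA integrity, kit, lighting, genotype and site cannot be told apart as the source of any difference from Ctrl.

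**Figure D5:**
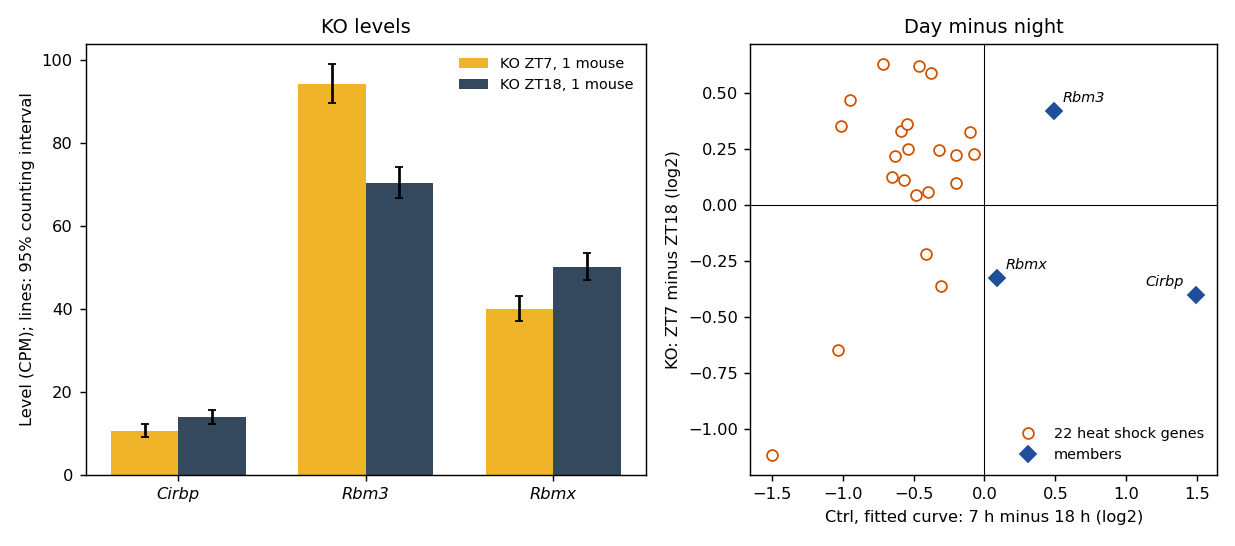
Left, level of the members in CPM (y axis from 0) in the KO mouse at ZT7 and the one at ZT18, with lines for the 95% counting interval and no replicate. Right, log2 difference ZT7 minus ZT18 in KO (y axis) against that of the Ctrl curve between 7 and 18 h (x axis) for the members and 22 heat shock genes, where Cirbp is at -0.40 against 1.49.

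The genes most like each member were named by Pearson r over the 24 Ctrl and SCNx libraries, which share the time course. For Cirbp the highest r were those of Nprl3 (0.93), Lrrc29 (0.93), 9930014A18Rik (0.90) and Dazap1 (0.89), and the lowest those of Amd1 (-0.90), Foxk2 (-0.89), Zfp322a (-0.88), Mis12 (-0.87) and Phospho2 (-0.87). Nprl3 codes for a subunit of the GATOR1 complex that restrains mTORC1, Dazap1 for an RNA-binding protein, and Amd1 for an enzyme of polyamine synthesis. The amplitude of Nprl3 in Ctrl was 0.22 with a peak at 8.20 h, so that this gene kept the time of Cirbp at a smaller swing. For Rbm3 the highest were Prep (0.87), Myh14 (0.85), Ptpru (0.84), Gm1110 (0.83) and Hnrnpa1 (0.82), and the lowest Zfp444 (-0.87), Ccnjl (-0.83), Gdf11 (-0.82), Snx21 (-0.81) and Mdm2 (-0.80). For Rbmx they were Ankrd16 (0.93), Apbb3 (0.90), Arglu1 (0.89), Inha (0.89) and Plekhn1 (0.89), and at the other end Niban2 (-0.76), Selenof (-0.74), Dnajc15 (-0.73), Tmed3 (-0.73) and Phb (-0.73). By the same measure Rbm3 ranked 142 for Cirbp, and Cirbp 44 for Rbm3.

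Rbm3 and Rbmx have near-identical copies in the gene table, and how many reads were shared with them was not tested. Counted as whole within 0.002, the deposited counts were whole in 24 of 24 Ctrl and SCNx libraries for Cirbp, 21 for Rbmx and 0 for Rbm3. The pseudogene Rbm3-ps had at most 18.9 counts in a library against at least 1639 for Rbm3. Rbmxl1, a retrogene closely related to Rbmx, had 25.5 to 36.8 CPM by library total, and its counts were whole in 0 of 24 libraries. Whether reads of Rbmx and Rbmxl1 were split between them was not tested. Rbmxl1 had an amplitude of 0.14 ± 0.036 (SE) and a peak at 20.0 h in Ctrl (adjusted p = 0.0517, edgeR).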

How the data were processed

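RNA was sequenced from 24 ChP samples of Ctrl and SCNx mice and 2 of KO mice. The authors mapped reads to GRCm39 with the nf-core/rnaseq workflow and deposited estimated counts per gene from Salmon (1.9.0). STAR, SAMtools (1.16.1), cutadapt (3.4) and StringTie (2.2.1) are listed in the submitters' processing notes. Salmon shares reads among similar features, so estimated counts need not be whole, and they were rounded here. Every value column belonged to a sample (0 other columns).

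Genes with a mean of at least 1 CPM in Ctrl and in SCNx were tested with edgeR 4.0.16 (R 4.3.3, TMM, quasi-likelihood F test, Benjamini-Hochberg adjustment, threshold 0.05). For each group, the model held the mean level and the cosine and sine of a 24 h period. The study's rhythm tools were not run here, and a rank test of the same type was used as an alternative, beside DESeq2 1.42.0 and limma 3.58.1. The scripts were tested on simulated data. With 1 mouse at each time, p-values measure the spread of single mice around the curves. Depth was 38751162 to 49527614 counts per library in Ctrl and SCNx, and the KO pair was scaled apart. Figures and permutation tests used Python 3.11.15, scipy 1.17.1 and matplotlib 3.10.9. Permutation tests were two-sided with 100000 resamples.

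Named genes were the members, the genes of the lists (heat shock genes, heat shock factors, cold shock domain proteins, glycine-rich relatives, splicing regulators, targets, clock genes) and, for each member, the 5 genes with the highest and the 5 with the lowest r. A gene that this rule names is not reported here. The members and lists were chosen with earlier results of these data known. Alternatives were other normalizations, filters and tests, a linear trend, single cycles, a fit per group, circadian time as a block, and mice left out.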

Additional observations from a re-analysis of the deposited data

Results flagged for a closer look

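The rhythm of Rbm3 differed between SCNx and Ctrl, with an amplitude of 0.17 against 0.59 and an adjusted p of 0.0268 in edgeR's test of the difference. The same test passed for the heat shock genes Hsp90aa1 (amplitude 0.17 in SCNx and 0.42 in Ctrl, adjusted p = 0.0404) and Fkbp4 (0.16 and 0.28, adjusted p = 0.0372). It passed for Ybx3, a cold shock domain protein gene (0.22 and 0.38, adjusted p = 0.0144). Tra2a, a splicing regulator gene, had an amplitude of 0.046 in SCNx and 0.63 in Ctrl (adjusted p = 0.00659). The test takes amplitude and peak time together and does not tell them apart. Fitted peaks in SCNx and Ctrl were at 2.68 and 10.9 h for Rbm3 and 16.6 and 20.5 h for Hsp90aa1. They were at 17.2 and 20.3 h for Fkbp4, 18.7 and 22.8 h for Ybx3, and 21.0 and 17.4 h for Tra2a. None of these genes was called rhythmic in SCNx. In the KO pair Cirbp was lower at ZT7 than at ZT18, by a log2 difference of -0.40, the opposite sign to the Ctrl curve, and this difference between KO and Ctrl was not tested.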

How the results depend on the processing

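Of 782 alternative values of 29 results, 710 were counted as kept and 19 changed sign, all of them in results that passed no test. Kept meant the same side of the threshold without a change of sign, a count within 1.5 times, or a KO difference within its interval. For a rhythm that was not called, the peak time did not enter. The Rbmx rhythm in Ctrl was counted as kept in the rank test, although its peak time there differed from that of the main fit. The Rbm3 level difference turned positive with circadian time as a block (0.026, adjusted p = 0.999), with a curve per group (0.052, 0.893) and by limma (0.031, 0.993). That of Rbmx turned negative without Ctrl CT4 and SCNx CT32 (-0.0082, 0.988). With single mice left out the adjusted p ranged from 0.936 to 0.997 for Rbm3, with 11 sign changes, and from 0.708 to 0.999 for Rbmx, with 1. Without the 2 farthest mice, the r with heat shock genes was 0.11 for Rbmx in Ctrl and 0.15 for Rbm3 in SCNx, which ran from -0.27 to 0.043 with single mice left out. Fits to 1 cycle of 6 mice lost most calls. The first cycle gave 44 rhythmic genes in Ctrl, 1 difference and 0 single-curve rhythms, with adjusted p of 0.0921 (Cirbp, Ctrl), 0.170 (Rbm3, Ctrl), 0.498 (Rbm3, difference) and 0.289 (Cirbp, single curve). The second gave 14, 0 and 0, with 0.264, 0.151, 0.522 and 0.487. With no minimum CPM there were 1384 rhythmic genes in SCNx, 654 differences and 289 single-curve rhythms, and the Cirbp difference passed (0.0352). DESeq2 gave 432, 589 and 1538 and 7 level differences, with the Cirbp difference at 0.0367. The rank test called 926 genes in Ctrl. Without Ctrl CT16 and SCNx CT0 the Rbm3 difference was at 0.0636. Without Ctrl CT4 and SCNx CT32 there were 2223 rhythmic genes in Ctrl, 504 differences and 998 single-curve rhythms. The KO difference of Rbm3 was 0.280 by library total and 0.281 by the total of tested genes. The cause was not tested for any of these. With each mouse left out in turn, rhythmic genes numbered 918 to 2249 in Ctrl and 0 to 6 in SCNx, differences 163 to 466, single-curve rhythms 230 to 1000 and level differences 0 to 3. Counts moved by over 1.5 times without Ctrl CT44 (918 rhythmic genes in Ctrl, 189 differences, 230 single-curve rhythms), SCNx CT32 (2249, 466, 1000 and 3 level differences), Ctrl CT20 (192 differences, 299 single-curve rhythms) and SCNx CT24 (6 rhythmic genes in SCNx). Single-curve rhythms fell to 291 without Ctrl CT8 and 381 without Ctrl CT32, and differences to 183, 191, 175 and 163 without Ctrl CT12, Ctrl CT24, SCNx CT12 and SCNx CT16. The adjusted p ranged from 0.00158 to 0.0627 for the Rbm3 difference, lost without Ctrl CT12, SCNx CT0 or SCNx CT12. It ranged from 0.000498 to 0.0614 for the Cirbp single-curve rhythm, lost without Ctrl CT20 or Ctrl CT44. The r of Cirbp with heat shock genes in SCNx ran from -0.70 to -0.48. Replicate numbers only follow accession order. No paired analysis was possible because the numbers pair no animals, and circadian time as a block left all 3 member level results without a call. Limits are 1 mouse per time, 2 cycles, and KO mice without replicates.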

Other observations

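Of 13 tested glycine-rich relatives of the members 4 passed edgeR's test of a rhythm in Ctrl and 9 did not, where 10.7% of all genes passed. Hnrnpd had an amplitude of 0.28 ± 0.033 (SE) and a peak at 8.21 h (adjusted p = 4.55e-05). Hnrnpa0 peaked at 6.57 h and Hnrnpa1 at 10.3 h, both within 4 h of Cirbp, while Hnrnpa3 peaked at 21.0 h. Of the 13 splicing regulators 1 passed, Tra2a, with an amplitude of 0.63 ± 0.074 and a peak at 17.4 h, while its relative Tra2b had an adjusted p of 0.245. Of the 6 tested cold shock domain genes 1 passed, Ybx3, with an amplitude of 0.38 ± 0.044 and a peak at 22.8 h.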
